A study of Mus musculus with 4 samples.

Results

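The respiratory chain and the ATP synthase of mitochondria were described in the inguinal mammary gland of mouse pups without the matrix metalloproteinase gene Mmp14 (Mt1-mmp). The genes were taken by symbol from the single-gene probe sets of the array: every symbol beginning Nduf, Uqcr or Atp5, the succinate dehydrogenase genes Sdha to Sdhd, the Cox4 to Cox8 subunit genes except Cox7a1 and Cox8b, Cyc1 and Cycs. This gave 87 of the 17097 genes on the array, each represented by its brightest probe set. They comprised 32 complex I subunits, 7 complex I assembly factors, 4 complex II, 8 complex III, 17 complex IV and 17 complex V genes, the gene of cytochrome c and a pseudogene. Ndufa4 and its relative Ndufa4l2 were placed with complex IV, where the Ndufa4 protein is now known to sit.

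The 2 knockout samples came from Mt1-mmp(-/-) mice, which lacked the gene in all tissues, and the 2 wild-type samples from Mt1-mmp(+/+) littermates. All were 10 days old, of an outbred Swiss Black stock. Each sample was hybridised to 1 Affymetrix array after intact gland tissue that held epithelium had been homogenised, so epithelium, fat and surrounding tissue contributed RNA together. The labels call the samples biological replicates without giving the animals behind each, and p-values measure only the spread between these samples. In a homogenate, fewer cells of a type and less RNA per cell cannot be told apart.

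The respiratory chain passes electrons from NADH (complex I) or succinate (complex II) through complex III and the mobile carrier cytochrome c to oxygen at complex IV. Complexes I, III and IV pump protons as they do so, and the returning protons drive ATP synthase, complex V. Most subunits are encoded in the nucleus, and the genes listed here are all nuclear. Brown fat uses the same chain to make heat, and muscle and brown fat are the tissues best known for dense mitochondria.

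Values are log2 expression after RMA, a method that corrects background and equalises the arrays, so a difference of 1 is a 2-fold difference and a shift common to all genes would not be seen. The array medians were 4.92 and 4.98 in the knockout and 4.92 and 4.92 in wild type. Mmp14 itself had 5.83 and 5.68 in the knockout, against 8.92 and 8.73 in wild type (log2), a difference of -3.07 whose adjusted p in limma was 0.0738. Epithelial and fat markers were present. The adipocyte hormone gene Adipoq had 13.26 and 13.04 in the knockout and 13.10 and 13.12 in wild type. White fat markers (8 genes, Adipoq among them) summed to 32100 and 27300 in the knockout and 31700 and 31900 in wild type. Of the 7 tested, 4 had lower means in the knockout and 3 higher, with differences from -5.00 to 0.28. Knockout replicate 2 lay below both wild-type arrays for 5 and above both for 1, where 50.8% and 38.7% of all genes did. Knockout replicate 1 did so for 2 and 4, where 43.7% and 43.2% of all genes did. Of 12 mammary epithelial markers, 11 were above the brightness limit. Those 11 all had higher means in the knockout, where 46.5% of all genes did, with a median difference of 0.98. In both knockout arrays 8 of the 11 lay above both wild-type arrays, where 26.3% of all genes did. Of the 11, 0 passed the test (smallest adjusted p in limma of 0.227). The 12 epithelial markers summed to 3750 and 2290 in the knockout and 2000 and 1050 in wild type. Skeletal muscle markers separated the arrays: the intensities of 21 such genes summed to 633 and 55500 in knockout replicates 1 and 2, against 622 and 3470 in the wild-type replicates. Of the 18 muscle markers bright enough to test, 18 lay above both wild-type arrays in the second knockout array and 1 in the first. The shares of all genes that did so were 38.7% and 43.2%. The other 3 of the 21 muscle genes stayed under the limit. Brown fat markers (10 genes) summed to 8400 and 5940 in the knockout and 15300 and 16200 in wild type. These sums include Cox7a1 and Cox8b, chain genes that the selection left out. Of the 10, 8 had lower means in the knockout and 2 higher. Both knockout arrays lay below wild type for 6 of them, where 32.5% of all genes tested did so. Ucp1, also on that list, had 10.45 and 7.37 in the knockout and 12.09 and 11.94 in wild type (log2). Epidermis and hair follicle markers (15 genes) summed to 9690 and 900 in the knockout and 914 and 2040 in wild type. The part of these tissues in the results below was not tested, and none of the 87 genes lies on chromosome 14, which carries Mmp14.

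Transcripts of the chain were slightly less abundant in the knockout as a group, although no single gene passed the test. Of the 86 members bright enough to test (mean of 4.94 or more, which is the median of all probe sets), 76 had a lower mean in the knockout and 10 a higher one, where 53.5% of all 11078 genes tested had a lower mean and 46.5% a higher one. The median difference, knockout minus wild type, was -0.24, against -0.02 over all genes tested and -0.12 over the 1071 genes as bright as most members (mean of at least 10). Both knockout arrays lay below both wild-type arrays for 52 of 86 members, or 60.5%, where the same held for 32.5% of all genes tested and 46.2% of those 1071. Both knockout arrays lay above both wild-type arrays for 5 members, namely Ndufa6, Cox7a2l, Atp5g1, Atp5g2 and Atp5j, where 26.3% of all genes and 27.4% of those 1071 did so. Ndufa6 and Atp5j are named for that count, once their values were known. Genes read on the same 4 arrays are not independent observations.

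With limma and Benjamini-Hochberg adjustment over all genes, 0 members passed an adjusted p of 0.05 in either direction, the same as the 0% of all genes tested. The smallest adjusted p among members was 0.105. At an unadjusted p under 0.05, 12 members (14.0%) were lower and 0 higher, close to the 12.1% of all genes that were lower by that measure, while 9.69% of all genes were higher. The counts depended on which knockout array was used. They are set beside all genes, of which 1071 had a mean of at least 10, as most members did. Without knockout replicate 1 the median difference was -0.06 over all genes and -0.17 over those 1071. Without knockout replicate 1, 53 members were called lower and 3 higher, where 24.6% and 13.1% of all genes were called. Without knockout replicate 2, 3 members were called lower (Cycs, Ndufaf4 and Ndufa4l2) and 0 higher, where 4.99% and 6.73% of all genes were called. Both fits take the spread of the single remaining knockout array to equal that of the wild-type arrays.

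The 2 knockout arrays shared the direction but not the size. The members' median difference from the wild-type mean was -0.09 for knockout replicate 1 and -0.38 for replicate 2. It was -0.00 and -0.06 for all genes tested, and -0.04 and -0.17 for the 1071 genes with a mean of at least 10. In knockout replicate 1 muscle markers were as low as in wild-type replicate 1. It lay below both wild-type arrays for 55 members, and above both for 15, where 43.7% and 43.2% of all genes did so. Of the 1071 bright genes, 556 (51.9%) lay below both there and 418 above. Knockout replicate 2 lay below both for 74 members and above both for 7, where 50.8% and 38.7% of all genes did so. Of the 1071 bright genes, 672 lay below both there and 354 above. Replicate 2 was the lower of the knockout arrays for 74 members, where 60.2% of all genes and 752 of the 1071 had that order. The median gap between the knockout arrays was 0.27 for members and that between the wild-type arrays 0.07, so the difference of -0.24 between genotypes was within the spread of the knockout pair. After cyclic loess, which removes shifts that depend on brightness, the members' median was -0.14.

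**Figure D1:**
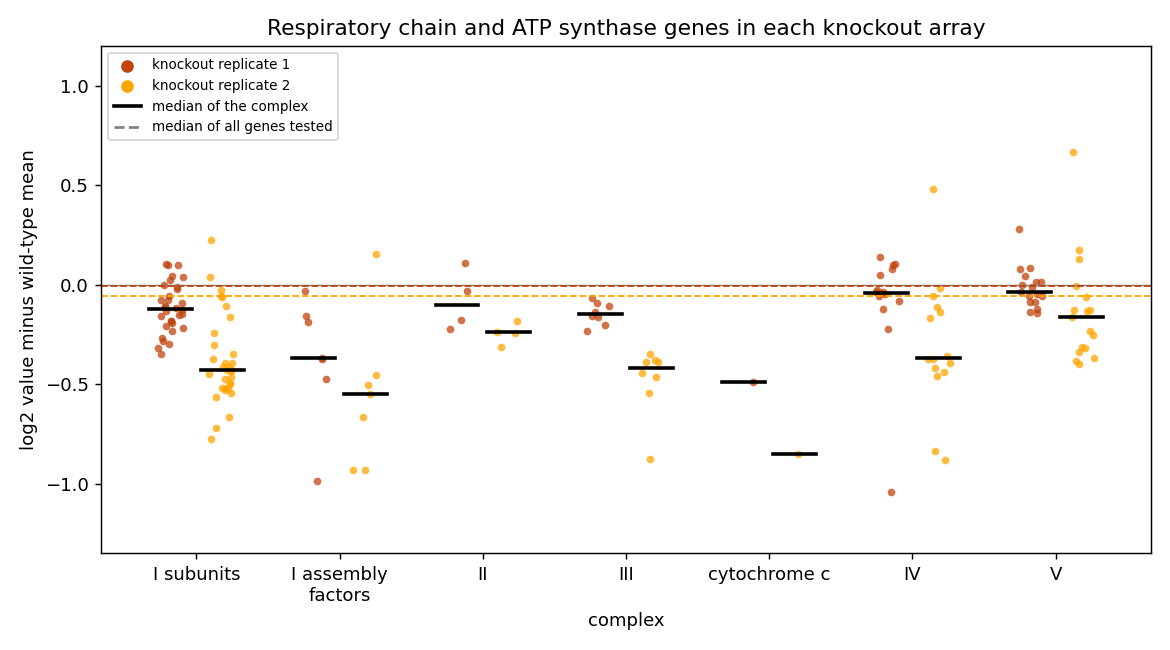
Difference of each tested member from the wild-type mean (log2, vertical axis) in knockout replicate 1 (red) and knockout replicate 2 (orange), by complex, with black bars for medians and dashed lines for the median of all genes tested. Zero is the wild-type mean. Cox6a2, at 4.98 in knockout replicate 2, and the pseudogene are left out. Assembly factors of complex I and cytochrome c lie lowest, and complex V lies closest to zero.

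The starts of the genes were examined because most members differed in the same direction and transcription of the chain is known to be coordinated by the factors NRF1, GABP, YY1 and ERRα. RefSeq promoters of the GRCm38.p6 build, from 250 bases before to 50 after the gene's start, were matched for 69 of the 87 members. The NRF1 motif is spelled in capitals in the sequences printed here and reads the same on both strands. It was found in 7 members, or 10.1%, against 1.07% of 27025 genes with a promoter and 2.29% of the 8898 that were tested. YY1's AAGATGGCG was found on either strand in 8 members (11.6%, against 1.64% of all and 3.5% of tested genes), GABP's CCGGAAGT in 4 (5.8%, against 4.31% and 8.8%) and the ERRα motif TCAAGGTCA in 2 (2.9%, against 0.466% and 0.326%). No motif contains another. Such matches describe the letters only, and no binding was measured.

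All but Atp5g2 of the 7 members with the NRF1 motif had a lower mean in the knockout, where 76 of the 86 tested members did. The differences of the 7, knockout minus wild type, were -0.75 for Ndufaf4, -0.65 for Ndufaf5, -0.44 for Ndufa11, -0.37 for Uqcrc1, -0.25 for Cox6a1, -0.22 for Atp5k and 0.23 for Atp5g2. The 4 promoters printed here carry it and belong to genes described below, 3 that were lower in the knockout and Atp5g2, which was higher. Capitals mark the motif, which begins 60 bases before the start in Ndufa11 (chr17:56717512-56717811, plus strand), 113 before in Ndufaf4 (chr4:24897833-24898132, plus strand), 30 after in Uqcrc1 (chr9:108936398-108936697, plus strand) and 42 before in Atp5g2 (chr15:102670998-102671297, minus strand).
Ndufa11: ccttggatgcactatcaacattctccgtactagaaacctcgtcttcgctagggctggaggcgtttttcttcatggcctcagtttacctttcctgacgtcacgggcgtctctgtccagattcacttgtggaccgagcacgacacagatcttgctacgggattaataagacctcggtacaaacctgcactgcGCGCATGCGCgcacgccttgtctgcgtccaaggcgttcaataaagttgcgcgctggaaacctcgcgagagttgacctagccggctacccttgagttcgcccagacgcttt
Ndufaf4: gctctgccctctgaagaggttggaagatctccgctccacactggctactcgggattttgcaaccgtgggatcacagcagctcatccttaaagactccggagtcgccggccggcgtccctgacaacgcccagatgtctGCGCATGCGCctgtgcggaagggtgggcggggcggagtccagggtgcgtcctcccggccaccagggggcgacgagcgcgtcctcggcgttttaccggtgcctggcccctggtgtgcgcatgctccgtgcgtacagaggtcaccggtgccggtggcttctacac
Uqcrc1: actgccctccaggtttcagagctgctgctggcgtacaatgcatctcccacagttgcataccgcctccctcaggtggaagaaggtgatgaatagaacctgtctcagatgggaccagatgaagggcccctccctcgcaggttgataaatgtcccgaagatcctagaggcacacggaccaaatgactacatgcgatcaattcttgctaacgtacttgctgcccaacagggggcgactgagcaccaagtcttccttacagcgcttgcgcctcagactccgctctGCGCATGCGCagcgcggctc
Atp5g2: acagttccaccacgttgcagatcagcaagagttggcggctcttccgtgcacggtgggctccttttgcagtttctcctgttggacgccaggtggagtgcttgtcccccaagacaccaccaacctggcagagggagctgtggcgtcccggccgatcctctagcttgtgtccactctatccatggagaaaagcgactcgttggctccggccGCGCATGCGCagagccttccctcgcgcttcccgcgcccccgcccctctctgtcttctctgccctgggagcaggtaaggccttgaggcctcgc

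Complex I, the NADH dehydrogenase, was lower by a small amount in most of its subunits. Of 32 subunit genes 29 had a lower mean in the knockout, and the median was -0.28 (-0.12 and -0.43 in knockout replicates 1 and 2), and 21 (65.6%) were below wild type in both knockout arrays, where 32.5% of all genes and 46.2% of those with a mean of at least 10 were. None passed the test, with a smallest adjusted p of 0.163. Without knockout replicate 1, 23 of the 32 (71.9%) were called lower, where 24.6% of all genes and 35.5% of those with a mean of at least 10 were. Without knockout replicate 2, 0 were, against 4.99% of all genes.

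Among the 6 core subunits, which carry the flavin and iron-sulphur clusters, the median was -0.35. Ndufs1, the largest of the iron-sulphur subunits, had 10.37 and 9.81 in the knockout, against 10.55 and 10.63 in wild type (log2), a difference of -0.50 ± 0.22 (SE, n = 2 per group; adjusted p = 0.289). Ndufs8, which also holds iron-sulphur clusters, was picked on seeing that its 4 probe sets were all lower in both knockout arrays. It had 11.26 and 10.81 in the knockout and 11.57 and 11.49 in wild type (-0.49 ± 0.18). Ndufv1, the subunit that binds NADH, had 10.72 and 10.23 in the knockout and 10.62 and 10.75 in wild type. Its groups overlapped, and its difference of -0.21 came from knockout replicate 2 alone, since without that array it was 0.04.

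The 26 accessory subunits, which surround the core and are needed for its stability, had a median of -0.26. Ndufa11, an accessory subunit of the membrane arm, had 10.71 and 10.53 in the knockout, against 11.06 and 11.05 in wild type, a difference of -0.44 ± 0.11 (adjusted p = 0.163), or -0.24 with the mean of its probe sets. Both knockout arrays lay below the wild-type pair, by more than the gap of 0.18 between them. Ndufa8, which lies on the intermembrane side, had 10.71 and 10.59 in the knockout and 10.99 and 11.07 in wild type (-0.38 ± 0.10). Ndufb7, on the same side, had 10.91 and 10.76 in the knockout and 11.14 and 11.24 in wild type (-0.36 ± 0.11), and its other probe set gave -0.42. Ndufb3, in the membrane arm, had 10.85 and 10.49 in the knockout and 11.13 and 11.17 in wild type (-0.48 ± 0.16). In all 4 genes the groups were apart. They were named for the smallest p in limma among complex I subunits, so that separation is no independent observation. Without knockout replicate 1 their differences ran from -0.66 to -0.43, and without knockout replicate 2 from -0.35 to -0.28.

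Not every subunit was lower. Ndufa6, an accessory subunit of the matrix arm singled out for its direction once its values were known, had 11.31 and 11.44 in the knockout and 11.14 and 11.29 in wild type (0.16 ± 0.11). Ndufa2 (0.07) and Ndufb11 (0.02) had overlapping groups. Ndufs5-ps, listed as a pseudogene, shares sequence with its parent gene and is therefore uncertain. It had 10.55 and 10.10 in the knockout and 10.70 and 10.67 in wild type.

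The assembly factors of complex I, proteins that help to build the enzyme without remaining in it, lay further below wild type than its subunits. Of 7 genes 6 were lower in both knockout arrays, where 32.5% of all genes were, and their median was -0.51 (-0.37 and -0.55 in knockout replicates 1 and 2). The factors were dimmer, with means of 6.65 to 9.49 (log2) over the arrays, against 10.21 to 12.15 for the subunits. The difference between factors and subunits, and the part of brightness in it, was not tested. At an unadjusted p under 0.05, 4 of the 7 (57.1%) were lower, where 12.1% of all genes were, and 0 passed adjustment.

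Ndufaf4, which acts early in the assembly of the matrix arm, had 7.52 and 8.00 in the knockout, against 8.53 and 8.48 in wild type, a difference of -0.75 ± 0.19 or 1.68-fold (SE, n = 2 per group; adjusted p = 0.169). It was lower in knockout replicate 1 than in replicate 2, unlike most members, and its second probe set gave -0.99. Ndufaf6, needed for early steps of assembly, had 7.17 and 7.09 in the knockout and 7.57 and 7.72 in wild type (-0.51 ± 0.11, adjusted p = 0.143). The knockout arrays nearly coincided and both lay well below wild type.

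Ndufaf1, a factor for the membrane arm, had 8.29 and 7.73 in the knockout and 8.65 and 8.68 in wild type (-0.65 ± 0.22). Ndufaf5, an enzyme that hydroxylates an arginine of Ndufs7, had 6.60 and 6.05 in the knockout and 6.95 and 7.01 in wild type (-0.65 ± 0.22). For these 2 genes the larger part of the difference lay in knockout replicate 2. Ndufaf2 (-0.32) and Ndufaf3 (-0.41) were also below wild type in both arrays, whereas Ndufaf8, the partner of Ndufaf5, had 9.43 and 9.62 in the knockout and 9.38 and 9.54 in wild type. Limma called 6 of the 7 lower without knockout replicate 1, but only Ndufaf4 without knockout replicate 2 (adjusted p = 0.027), where 24.6% and 4.99% of all genes were called lower.

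Complex II, succinate dehydrogenase, differed little. Its 4 genes had lower means in the knockout, and the median was -0.18 (-0.10 and -0.24 in knockout replicates 1 and 2), and -0.08 after cyclic loess and -0.10 after quantile normalisation. Sdhd and Sdhc encode its membrane anchors. Sdhd had 10.05 and 10.04 in the knockout and 10.21 and 10.34 in wild type (-0.23 ± 0.10, adjusted p = 0.280), from a probe set that can match several transcripts. Sdhc had 10.50 and 10.49 in the knockout and 10.65 and 10.70 in wild type (-0.18 ± 0.09). In both anchor genes the knockout arrays were close together and below wild type. Sdhb, the iron-sulphur subunit, had 11.81 and 11.53 in the knockout and 11.80 and 11.89 in wild type. Sdha, the subunit that oxidises succinate, had 11.37 and 11.02 in the knockout and 11.18 and 11.34 in wild type. Those groups overlapped, and Sdha's difference of -0.07 turned to 0.11 without knockout replicate 2, 0.01 without wild-type replicate 2, 0.03 after cyclic loess and 0.02 after quantile normalisation. It was -0.24 without knockout replicate 1, and Sdha's second probe set, at 11.11 and 10.57 in the knockout and 11.12 and 11.18 in wild type, gave -0.31. For comparison, all genes with a mean of at least 10 had medians of -0.04 and -0.17 in knockout replicates 1 and 2.

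Complex III lay below wild type throughout, by small amounts. All 8 genes lay below wild type in both knockout arrays, where 32.5% of all genes and 46.2% of those with a mean of at least 10 did, and the median was -0.26 (-0.15 and -0.42 in knockout replicates 1 and 2). Their differences ran from -0.55 to -0.23. None passed the test, with a smallest adjusted p of 0.274. Without knockout replicate 1 the median of complex III was -0.42, and without knockout replicate 2 it was -0.15. Genes with a mean of at least 10 had medians of -0.17 without knockout replicate 1 and -0.04 without knockout replicate 2. After cyclic loess the median of complex III was -0.17.

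Uqcrc1, a core protein of the matrix side, had 11.04 and 10.70 in the knockout, against 11.20 and 11.29 in wild type, a difference of -0.37 ± 0.16 (adjusted p = 0.274). Uqcrfs1, the Rieske iron-sulphur protein, had 11.37 and 11.07 in the knockout and 11.49 and 11.58 in wild type (-0.31 ± 0.14). Cyc1, cytochrome c1, which hands electrons to cytochrome c, had 11.73 and 11.45 in the knockout and 11.79 and 11.89 in wild type (-0.25 ± 0.14). In each the wild-type arrays lay close together and knockout replicate 2 lay farthest from them.

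Uqcrq, a small subunit, had 11.77 and 11.13 in the knockout and 11.96 and 12.05 in wild type (-0.55 ± 0.25). Its knockout arrays were 0.64 apart, among the widest gaps of any member. The value rests on a probe set that can match several transcripts, its other probe sets lie below the brightness limit, and the mean of all of them gave -0.11. Uqcr10, another small subunit, had 11.49 and 11.30 in the knockout and 11.62 and 11.67 in wild type (-0.25 ± 0.11), but its 2 dimmer probe sets differed the other way, by 0.30 and 0.16, and the mean of its probe sets gave 0.07.

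Cytochrome c, the carrier between complexes III and IV, differed more from wild type than most subunits. Cycs had 11.52 and 11.15 in the knockout, against 12.02 and 12.00 in wild type, a difference of -0.67 ± 0.16 or 1.59-fold (SE, n = 2 per group; adjusted p = 0.153). Both knockout arrays were below the wild-type pair by more than the gap of 0.36 between them. A second probe set gave 11.03 and 10.69 in the knockout and 11.64 and 11.67 in wild type. Limma called Cycs lower with either knockout array left out, with adjusted p of 0.00938 when replicate 1 was dropped and 0.0423 when replicate 2 was, where 24.6% and 4.99% of all genes were called lower.

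**Figure D2:**
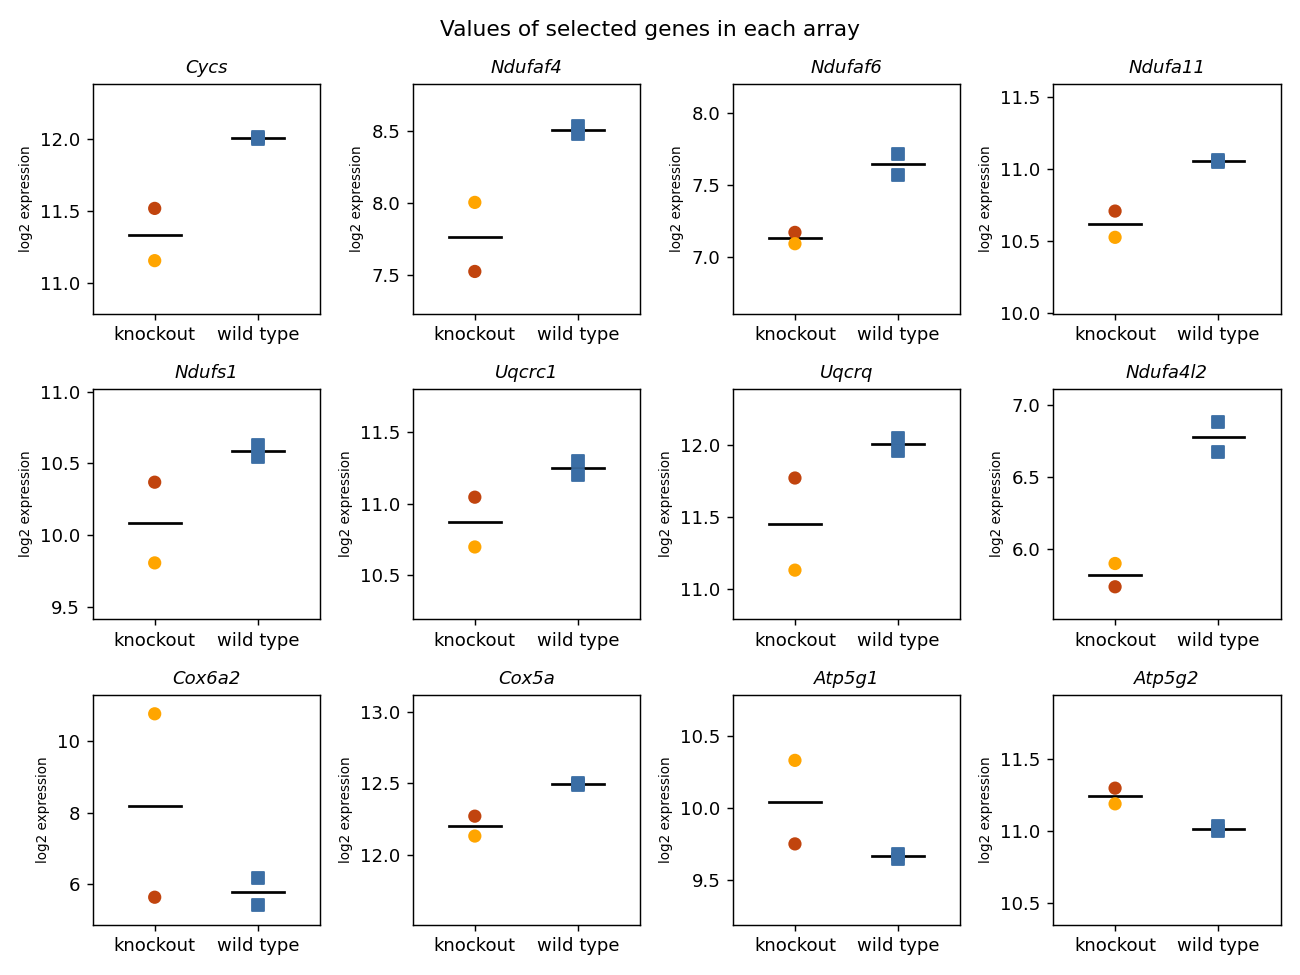
Log2 expression of 12 genes in knockout replicate 1 (red circle), knockout replicate 2 (orange circle) and the wild-type arrays (blue squares), with a bar at each group's mean. The vertical axes span different ranges. The knockout arrays lie below wild type in Cycs, at 11.52 and 11.15 against 12.02 and 12.00, while Cox6a2 is high only in knockout replicate 2, at 10.77.

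Complex IV, cytochrome c oxidase, was mixed. Of 16 genes tested 13 had lower means and 3 higher, and the median was -0.20 (-0.04 and -0.37 in knockout replicates 1 and 2), and 6 were below wild type in both knockout arrays, or 37.5%, where 32.5% of all genes and 46.2% of those with a mean of at least 10 were. The median was -0.11 after cyclic loess. Without knockout replicate 1 the median was -0.37, and without knockout replicate 2 it was -0.04. Genes with a mean of at least 10 had medians of -0.17 and -0.04 in the same comparisons.

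The usual subunits showed small differences. Cox5a, a subunit on the matrix side, had 12.27 and 12.13 in the knockout, against 12.50 and 12.49 in wild type, a difference of -0.29 ± 0.10 (adjusted p = 0.224). Its groups were apart, and its other probe sets gave -0.33 and -0.19. Cox4i1, the main form of the subunit that binds ATP as a regulator, had 12.90 and 12.68 in the knockout and 12.77 and 12.82 in wild type. These overlapped, and its difference of -0.00 turned to 0.10 after cyclic loess, 0.11 without knockout replicate 2 and 0.02 without wild-type replicate 2.

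Cox5b, which binds zinc, had 12.28 and 11.89 in the knockout and 12.25 and 12.41 in wild type, with overlapping groups. Its difference of -0.25 was -0.11 with the mean of its probe sets. Ndufa4 had 12.00 and 11.66 in the knockout and 12.02 and 12.08 in wild type. In both genes knockout replicate 1 lay close to wild type and knockout replicate 2 below it. Cox7a2l, a protein that joins complexes III and IV into supercomplexes, had 10.39 and 10.77 in the knockout and 10.26 and 10.32 in wild type (0.29 ± 0.16, adjusted p = 0.373). Its other probe sets gave 0.23 and 0.27, and it was called higher without knockout replicate 1 (adjusted p = 0.0227) but not without knockout replicate 2 (0.421).

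Several subunits of complex IV have isoforms that are used in particular tissues, and some of these differed from wild type otherwise than their usual partners. Ndufa4l2, a relative of Ndufa4 known as a hypoxia-induced gene, had 5.74 and 5.90 in the knockout, against 6.88 and 6.67 in wild type, a difference of -0.96 ± 0.13 or 1.95-fold. Its adjusted p of 0.105 was the smallest of all members, and it was called lower without knockout replicate 1 (adjusted p = 0.0173) and without knockout replicate 2 (0.0338). The knockout values lie near the array's background, where RMA compresses differences.

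Cox6a2, the striated muscle form, had 5.64 and 10.77 in the knockout and 5.41 and 6.19 in wild type. It was high in knockout replicate 2, the array with the muscle markers, and wild-type replicate 2, whose muscle markers summed to 3470, held the higher of the wild-type values. The mean difference of 2.41 ± 1.85 (adjusted p = 0.489) turned to -0.16 without knockout replicate 2. Cox6a1, its partner in most tissues, had 12.90 and 12.56 in the knockout and 12.97 and 12.99 in wild type (-0.25 ± 0.15). Thus the muscle form was higher and the usual form lower in the same knockout array. Cox7a1 and Cox8b, muscle and brown fat forms that the selection left out, had 10.31 and 10.11, and 11.65 and 11.59, in the knockout, against 11.06 and 11.22, and 12.23 and 12.42, in wild type, and so were lower in both knockout arrays.

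The other isoforms were dim or overlapped between groups. Cox6b2, known from testis, had 7.29 and 6.32 in the knockout and 7.08 and 7.23 in wild type, and its difference of -0.35 turned to 0.14 without knockout replicate 2. Its partner Cox6b1 had 12.70 and 12.29 in the knockout and 12.74 and 12.75 in wild type. Cox4i2, a form of the lung, had 4.98 and 4.88 in the knockout and 5.06 and 4.98 in wild type. The testis form Cox8c had 6.17 and 6.27 in the knockout and 6.23 and 6.35 in wild type, and its partner Cox8a 11.91 and 11.56 in the knockout and 11.89 and 11.98 in wild type. Cox7b2 lay below the brightness limit, at 3.95 and 4.02 in the knockout and 4.00 and 3.95 in wild type, and was the only member not tested.

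ATP synthase, complex V, was closest to wild type among the proton-moving complexes. Of 17 genes 14 had lower means and 3 higher, and the median was -0.11 (-0.03 and -0.16 in knockout replicates 1 and 2), which is near the -0.12 of all genes with a mean of at least 10. The median was -0.02 after cyclic loess and -0.06 after quantile normalisation. In both knockout arrays 7 genes were below wild type (41.2%) and 3 above (17.6%), where 32.5% and 26.3% of all genes were, and 46.2% and 27.4% of those with a mean of at least 10. Without knockout replicate 1, 5 (29.4%) were called lower and 1 higher, where 24.6% and 13.1% of all genes were called, and 35.5% of those with a mean of at least 10 were called lower. Without knockout replicate 2, 0 were called either way.

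In the catalytic F1 head, Atp5a1, the alpha subunit, had 11.79 and 11.53 in the knockout, against 11.91 and 11.95 in wild type, a difference of -0.27 ± 0.13 (adjusted p = 0.308). Atp5b, the beta subunit that forms ATP, had 12.31 and 11.91 in the knockout and 12.32 and 12.27 in wild type, and its difference of -0.18 turned to 0.01 without knockout replicate 2. Atp5c1, the central gamma shaft, had 12.10 and 11.98 in the knockout and 12.08 and 12.15 in wild type, and its difference of -0.07 turned to 0.03 after cyclic loess, 0.01 with the mean of its probe sets and 0.09 without probe sets that can match several transcripts. In these 2 genes the groups overlapped. Of the membrane part, Atp5j2 (subunit f) had 12.43 and 12.21 in the knockout and 12.55 and 12.60 in wild type (-0.25 ± 0.12). Atp5k (subunit e) had 12.07 and 11.88 in the knockout and 12.17 and 12.22 in wild type (-0.22 ± 0.11).

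The genes of subunit c, which forms the rotating membrane ring, did not share a direction. Atp5g1, Atp5g2 and Atp5g3 encode the same mature protein behind different targeting sequences. Atp5g1 had 9.75 and 10.33 in the knockout, against 9.68 and 9.65 in wild type, a difference of 0.38 ± 0.23 (adjusted p = 0.393), or 0.16 with the mean of its probe sets. Most of it lay in knockout replicate 2, and Atp5g1 was called higher without knockout replicate 1 (adjusted p = 0.013) but not without knockout replicate 2 (0.464). Atp5g2 had 11.30 and 11.19 in the knockout and 11.00 and 11.03 in wild type (0.23 ± 0.10, adjusted p = 0.282). Both knockout arrays were higher here, and replicate 1 more so. Atp5g3, named as the third of the family, had 12.41 and 12.34 in the knockout and 12.50 and 12.44 in wild type (-0.09 ± 0.09).

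**Figure D3:**
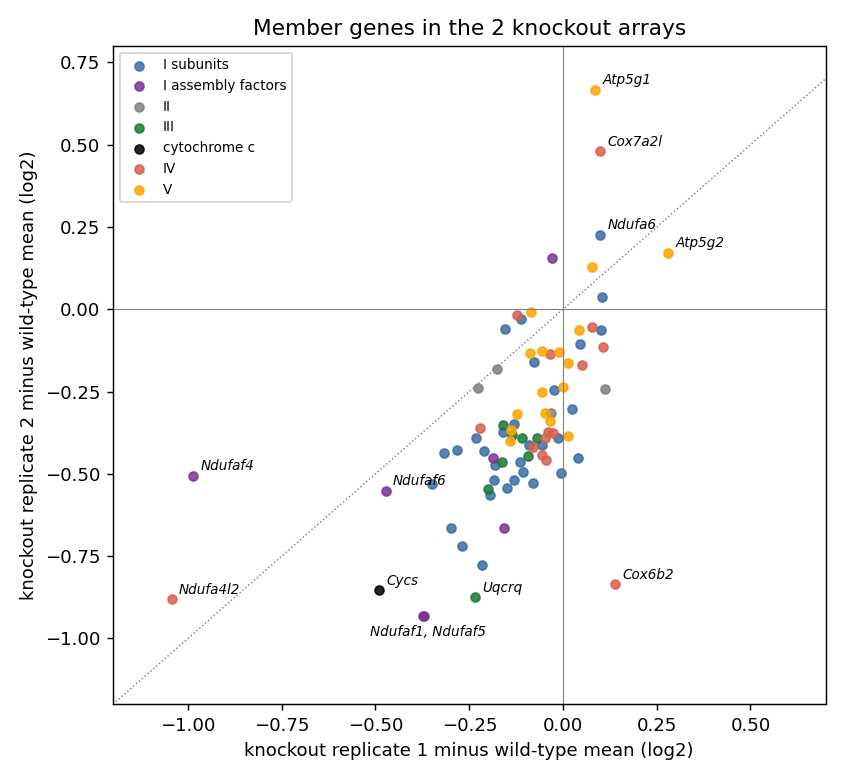
Difference from the wild-type mean (log2) in knockout replicate 1 (horizontal) and knockout replicate 2 (vertical) for tested members except Cox6a2 and the pseudogene, coloured by complex, with a dotted line of equal values. Most points lie below that line. Over all 86 tested members, with those left out of the plot included, 74 were lower in replicate 2 than in replicate 1. Ndufaf4 and Ndufa4l2, lower in replicate 1, lie above it.

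Other genes of the same machinery were taken as lists to set beside the complexes. None of their members passed the test over all genes. Assembly factors of complex IV were lower in 13 of 14 genes tested, and the median was -0.46 (-0.26 and -0.61 in knockout replicates 1 and 2), and 12 were below wild type in both knockout arrays, where 32.5% of all genes were. Cox19, a factor for copper delivery, had 9.04 and 9.01 in the knockout and 9.65 and 9.73 in wild type (-0.67 ± 0.09, adjusted p = 0.105). Cox10, which makes the heme of the enzyme, had 7.56 and 7.51 in the knockout and 8.09 and 8.12 in wild type (-0.58 ± 0.09). In both genes, named for the smallest p in limma on their list, the knockout arrays lay together. Without knockout replicate 1 the differences were -0.68 and -0.60, and without knockout replicate 2 they were -0.66 and -0.55.

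Assembly factors of complexes II, III and V were lower in both knockout arrays for all 11 genes tested, where 32.5% of all genes were. Their median was -0.47 (-0.34 and -0.60 in knockout replicates 1 and 2). Among them were Tmem70, a factor for ATP synthase (-0.64 ± 0.14), and Sdhaf1, a factor for complex II (-0.51 ± 0.11). The medians of the assembly lists were thus lower than those of the subunits, a difference that was not tested. Genes of the mitochondrial ribosome were lower in 65 of 73, and the median was -0.34 (-0.20 and -0.50 in knockout replicates 1 and 2), including Mrpl16 (-0.92 ± 0.15) and Mrps34 (-0.53 ± 0.09). Of those 73, 54 (74.0%) were below wild type in both knockout arrays, where 32.5% of all genes were. Limma called 54 lower when knockout replicate 1 was dropped and 7 when replicate 2 was, where 24.6% and 4.99% of all genes were called lower.

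The citrate cycle was lower in 10 of 11 genes, and the median was -0.35 (-0.20 and -0.50 in knockout replicates 1 and 2), including the succinyl-CoA ligase genes Sucla2 (-0.65 ± 0.17) and Suclg1 (-0.69 ± 0.20). Coenzyme Q synthesis had a median of -0.21 over 7 genes, but -0.02 in knockout replicate 1 and -0.44 in replicate 2. Its hydroxylase gene Coq7 differed by -0.90 ± 0.27 and Pdss2, which makes the side chain, by -0.48 ± 0.20. Import and outer membrane genes had a median of -0.13 over 12 (-0.09 and -0.29 in knockout replicates 1 and 2), although the inner membrane import genes Timm17a (-0.65 ± 0.10) and Timm23 (-0.57 ± 0.09) were lower in both knockout arrays.

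Regulators of mitochondrial biogenesis had a median of -0.13 over 11 genes (-0.03 and -0.10 in knockout replicates 1 and 2), 7 with lower and 4 with higher means. The nuclear receptor gene Esrra, which encodes ERRα, had 7.99 and 7.86 in the knockout and 8.29 and 8.34 in wild type (-0.39 ± 0.10, adjusted p = 0.169). Polrmt, the polymerase of mitochondrial DNA transcription, differed by -0.26 ± 0.11. The carriers of ADP, ATP and phosphate had a median of 0.00 over 3 genes. Slc25a4, the carrier form of heart and muscle, had 11.45 and 12.14 in the knockout and 11.75 and 11.69 in wild type, and was high in the array with the muscle markers. Slc25a5, the form of most other tissues, had 11.93 and 11.53 in the knockout and 12.00 and 12.06 in wild type.

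**Figure D4:**
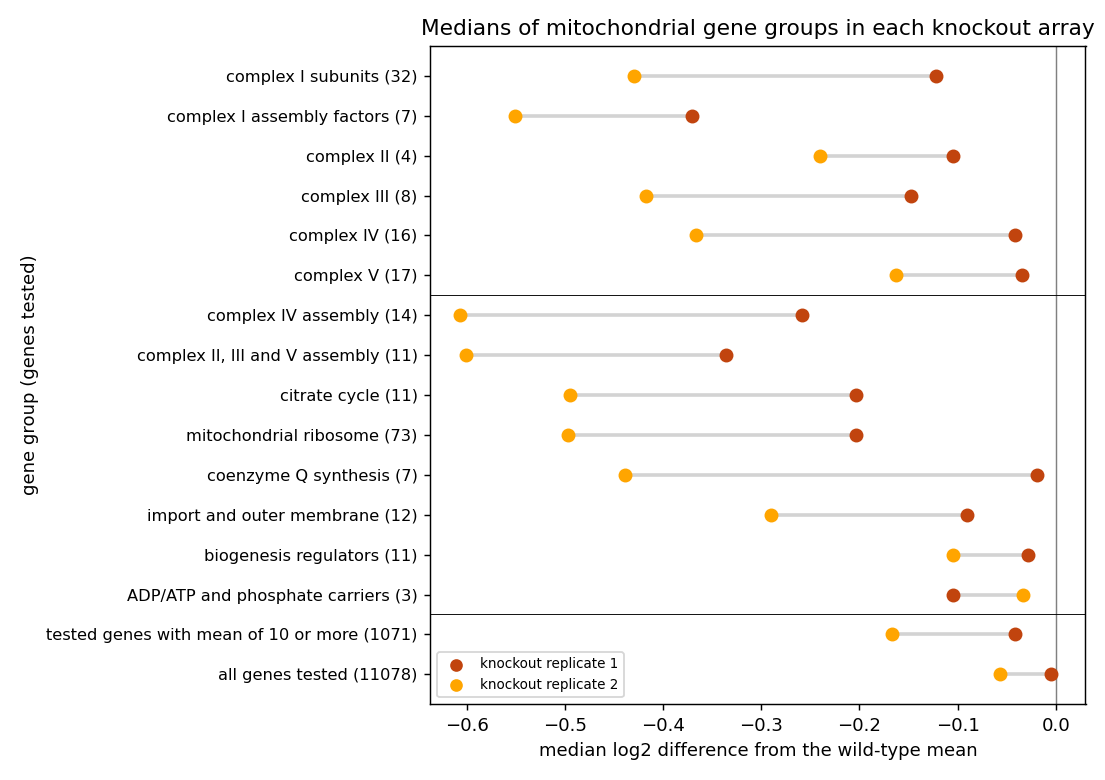
Median difference from the wild-type mean (log2, horizontal axis) in knockout replicate 1 (red) and knockout replicate 2 (orange) for the complexes (top), other mitochondrial gene lists (middle) and all or bright genes (bottom), with the number of genes tested in brackets. Assembly lists lie lowest, at -0.61 and -0.60 in knockout replicate 2, and complex V and the biogenesis regulators lie near the bright genes.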

How the data were processed

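The deposited table holds log2 expression values of 45141 probe sets, which the authors computed by RMA with affy in R, according to the labels and per the submitters' processing notes. Versions are not given in the sources used here, and the log2 scale was read from the values. RMA equalises arrays and compresses low values. Gene names came from the array's annotation, where 28898 probe sets had 1 gene, 551 several and the rest none. For each of 17097 genes the brightest probe set was kept, and 11078 genes with a mean of at least 4.94 were tested with limma 3.58.1 in R 4.3.3 (lmFit, eBayes, Benjamini-Hochberg over all genes, threshold 0.05), 2 knockout against 2 wild-type arrays, without covariates. The number of arrays limits the precision. The fit was tested on simulated data, in which both groups had the same spread for a given gene. In these data the median gap over all genes was 0.21 between the knockout arrays and 0.08 between the wild-type arrays. The simulation therefore cannot tell how the fit behaves with such unequal spreads.

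Members, lists and tests were chosen with earlier results of these data known, so no p is given for a list. Named genes were, per complex, up to 4 with the smallest p, core subunits and tissue isoforms with their partners, and the 4 with the widest knockout gap. Cox7b was not analysed here. In each other list the 2 genes with the smallest p were named. Alternatives covered brightness filters, probe set choice, scaling, priors, array weights, the replicate block, left-out arrays, the threshold and complex assignment. The set of genes with a mean of at least 10 was chosen after seeing the data.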

Additional observations from a re-analysis of the deposited data

How the results depend on the processing

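With 2 arrays per genotype, leaving out 1 array decided the counts. Over the 4 left-out arrays, members called lower numbered 0 to 53 and higher 0 to 3, and all genes called lower 0 to 2725 and higher 0 to 1455. At an adjusted p under 0.10, 10 genes were lower and 7 higher, none of them a member. The members' median of -0.24 stayed below 0 in every alternative run, at -0.38 without knockout replicate 1, -0.09 without knockout replicate 2, -0.14 after cyclic loess and -0.18 after quantile normalisation. Leaving out arrays gave medians of -0.59 to -0.37 for complex I assembly, -0.42 to -0.15 for complex III and -0.16 to -0.0346 for complex V, and -0.61 to -0.26 for complex IV assembly, -0.44 to -0.0195 for coenzyme Q, -0.50 to -0.20 for the mitochondrial ribosome, -0.29 to -0.0903 for import, -0.15 to -0.0285 for biogenesis regulators and -0.10 to 0.0111 for carriers. Cyclic loess gave -0.0841 for complex II, -0.0161 for complex V, -0.0723 for regulators and 0.10 for carriers. Quantile normalisation gave -0.0795 for regulators and 0.0835 for carriers, the mean of probe sets -0.19 and -0.0518, a filter at the 75th percentile -0.17 for regulators, and dropping probe sets with possible cross-matches 0.0405 for carriers.

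Among 594 comparisons of 40 named members over 15 alternatives, 545 kept direction and side of the threshold, 34 passed the threshold, all with a knockout array left out, and 15 reversed, in 8 members. Over the left-out arrays the differences ran from -0.38 to 0.0143 for Atp5b, -0.11 to 0.11 for Cox4i1, -0.16 to 4.98 for Cox6a2, -0.84 to 0.14 for Cox6b2, -0.45 to 0.0391 for Ndufv1 and -0.24 to 0.11 for Sdha. In each, knockout replicate 2 made the turn, and wild-type replicate 2 did so too in Cox4i1 and Sdha. Cyclic loess gave 0.0301 for Atp5c1, 0.10 for Cox4i1 and 0.0271 for Sdha, quantile normalisation 0.0206 for Sdha, and the mean of probe sets 0.0096 for Atp5c1 and 0.0665 for Uqcr10. Dropping probe sets with possible cross-matches gave 0.0897 for Atp5c1. The cause of these changes was not tested. With the replicate number as a block, 0 members were called and the median was -0.24. Same-numbered arrays did not deviate together across genes as a whole (r = -0.09 across 11078 genes). This correlation cannot tell whether the numbers pair the samples. Muscle markers, for 1, summed higher in replicate 2 of either genotype, at 55500 in the knockout and 3470 in wild type. In replicate 1 they summed to 633 and 622.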

Other observations

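Further probe sets of the members mostly repeated the direction of the brightest. Of 50 further probe sets above the brightness limit, in 39 genes, 40 had the same sign and 10 the opposite one. The 4 further probe sets of Ndufa7, a complex I accessory subunit, differed by 0.03 to 0.07 where the brightest gave -0.03.

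Uqcr10 stood out among these. A dim probe set had 4.50 and 7.29 in knockout replicates 1 and 2, against 4.58 and 6.90 in wild-type replicates 1 and 2, and another had 7.43 and 8.61 in the knockout and 7.31 and 8.14 in wild type. Both were high in replicate 2 of either genotype, while the brightest probe set was close to even between the wild-type arrays, at 11.62 and 11.67.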
